A study of Homo sapiens with 6 samples.

Results

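The genes described here encode 9 short structural RNAs of the human cell, chosen by name from the 40173 genes of a count table of A549 cells, a human lung adenocarcinoma line. They are the U5 small nuclear RNA RNU5A-1 and its annotated pseudogene copy RNU5A-8P, the vault RNAs VTRNA2-1 and VTRNA1-1, the RNase MRP RNA RMRP, the RNase P RNA RPPH1, the 7SK RNA RN7SK, and the signal recognition particle RNAs RN7SL1 and RN7SL2. The genes were selected on their measured values in the same libraries, namely lower counts after silencing and high counts in control replicate 3, so their values in that contrast, and the counts of them that passed a threshold, are given below as a description, with no p for a single member and nothing read from the counts. RNA sequencing compared 3 libraries of cells transfected with a small interfering RNA (siRNA) against FAM83H-AS1, a long noncoding RNA, with 3 libraries of cells transfected with a scrambled negative control. All cells were of the same parental line, and total RNA was harvested 24 h after transfection for Ion Proton libraries. The labels do not say whether the replicates were separate cultures or whether more than 1 siRNA sequence was used, so the spread between replicates may be technical.

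None of these RNAs is translated, and they lack the long poly(A) tail of an mRNA. U5 small nuclear RNA is made by RNA polymerase II and sits at the heart of the spliceosome, where its loop holds the ends of the exons to be joined, whereas the vault, RMRP, RPPH1, 7SK and 7SL RNAs are made by RNA polymerase III. RNase P trims the front end of precursor tRNAs, RNase MRP acts in ribosomal RNA processing, 7SK RNA holds the elongation factor P-TEFb in an inactive complex, and 7SL RNA is the scaffold of the particle that brings ribosomes with secretory proteins to the endoplasmic reticulum.

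Reference sequences are shown for the vault RNAs, of which only VTRNA2-1 had enough counts to be tested, and for the front of 7SK RNA, from GENCODE 29 on GRCh38, written as DNA in the 5′ to 3′ direction. VTRNA2-1 lies at chr5:136080470-136080597 on the minus strand and VTRNA1-1 at chr5:140711275-140711373 on the plus strand. Capitals mark GTTCGA, the core of the B box, an internal promoter element of RNA polymerase III genes.
VTRNA2-1: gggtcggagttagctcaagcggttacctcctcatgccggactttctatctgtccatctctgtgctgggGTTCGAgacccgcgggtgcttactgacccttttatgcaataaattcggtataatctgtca
VTRNA1-1: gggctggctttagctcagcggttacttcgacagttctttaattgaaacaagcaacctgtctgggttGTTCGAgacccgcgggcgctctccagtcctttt
The letters begin at base 69 and base 67, on the sense strand, and are held by 0.420% and 0.649% of transcripts of like length. Across 131 aligned columns the 2 vault RNAs were 53.4% identical, with no shared run longer than 16 bases.

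RN7SK lies at chr6:52995621-52995948 on the plus strand. Its first 100 bases are shown since they hold the front hairpin with which HEXIM proteins bind it, and capitals mark GATC, the letters known from that contact.
RN7SK: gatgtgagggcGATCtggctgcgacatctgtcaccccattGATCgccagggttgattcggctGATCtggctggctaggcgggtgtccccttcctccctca
GATC occurs 3 times in the 328 bases, but it is a short word that 67.1% of transcripts of like length hold.

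RNU5A-1 lies within an intron of PARP16 and RNU5A-8P within an intron of HHAT, each on the strand opposite to that gene. Over 118 aligned columns the pair was 83.1% identical, and the longest run of letters that they share was 39 bases, so that a short read can match both. RN7SL1 and RN7SL2 can hardly be told apart by reads. They differed in 5 of 300 aligned columns (98.3% identity), with a shared run of 205 bases. GENCODE 29 lists 677 RN7SL and 293 RN7SK pseudogenes, of which the count table holds 3 and 6, and how reads with several matches were counted is not stated. The split of reads between RN7SL1, RN7SL2 and their copies is therefore uncertain. RN7SL1 also lies within an intron of RPS29 on the opposite strand. The remaining members are RMRP at chr9:35657751-35658018 on the minus strand and RPPH1 at chr14:20343075-20343407 on the minus strand, with 47.3% identity to each other and no shared run above 9 bases.

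Library totals ranged from 9738291 counts in control replicate 1 to 17742643 in control replicate 3, the deepest library. Values are CPM, counts per 1000000 counts of a library after scaling with edgeR's trimmed mean of M values (TMM), and "±" is the SD over 3 libraries unless named as a standard error (SE). FAM83H-AS1 itself was at 15.9 ± 1.39 CPM (n = 3) in the control and 4.87 ± 0.617 CPM (n = 3) in the silenced libraries, and edgeR gave a log2 fold change of -1.70 ± 0.148 (SE) at an adjusted p of 7.99e-05. The epithelial keratins KRT8, KRT18 and KRT7 were each at 909 CPM or more in all libraries, and NQO1 at 183 to 213 CPM. Other genes on the list of A549 markers were low. ALDH1A1 and AKR1B10 did not exceed 2 and 28 counts in any library, and CDH1 and EPCAM had 8 to 19 and 32 to 59 counts. The 8 epithelial markers, mostly keratin, summed to 4615 to 4911 CPM in the control and 3718 to 3779 CPM in the silenced libraries. The 10 markers of other cell types summed to 150.5 to 172.6 and 253.7 to 293.5 CPM, nearly all of it from CD68 and COL1A1. CD3E, SCGB1A1 and SFTPA1 were at 0. The part of these markers in the results below was not tested. In these bulk samples, fewer cells that hold an RNA and less of it per cell cannot be told apart.

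Control replicate 3 stands apart for the structural RNAs. The 9 genes took 0.127% of its counts, compared with 0.0271% to 0.0467% in the other 5 libraries. Of the 9, 8 were highest in it, where 15.0% of all tested genes had their highest value. High counts in this library were part of how the members were selected, so nothing is read from that count. Genes of the snRNA type together took 0.0858% of its counts and 0.00478% to 0.0155% elsewhere. The members RNU5A-1 and RN7SK are of this type and are part of these shares. The 5.8S ribosomal RNA pseudogene RNA5-8SP6 took 3.22% of its counts against 0.241% to 0.448% elsewhere. FAM83H-AS1 was 1.13 times as high in it as in the mean of the other 2 controls. The fold changes of the structural RNAs below are therefore also given without this library.

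U5 snRNA had the widest span of the members. RNU5A-1 had 40, 38 and 637 counts in control replicates 1, 2 and 3 and 14, 3 and 32 counts in silenced replicates 1, 2 and 3, which is 4.11, 3.28 and 37.7 CPM against 1.37, 0.277 and 2.38 CPM. All silenced libraries were below all controls, but the mean of the controls (15.0 ± 19.6 CPM, n = 3) rested on control replicate 3, and the silenced mean was 1.34 ± 1.05 CPM (n = 3). The log2 fold change was -3.48 (standard error 0.929), and without control replicate 3 it was -1.40 (standard error 0.496), where the silenced mean was 36.3% of the mean of control replicates 1 and 2.

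The pseudogene copy RNU5A-8P was likewise highest in control replicate 3 and lowest in silenced replicate 2, at a lower level. Its counts were 16, 20 and 295 in the controls and 9, 4 and 21 in the silenced cells, or 1.64, 1.73 and 17.4 CPM against 0.879, 0.370 and 1.56 CPM. The groups did not overlap, yet silenced replicate 3 was within 0.1 CPM of control replicate 1. With all libraries the log2 fold change was -2.90 (standard error 0.881), and without control replicate 3 it was -0.79 (standard error 0.485). Reads of RNU5A-1 made up 71.4%, 65.5% and 68.4% of the pair in the 3 controls (Clopper-Pearson 95% intervals of 57.8% to 82.7%, 51.9% to 77.5% and 65.3% to 71.3%). In the silenced libraries they made up 60.9%, 42.9% and 60.4% (intervals of 38.5% to 80.3%, 9.90% to 81.6% and 46.0% to 73.6%). These intervals, which cover counting error only, overlap for every pair of libraries, so that a difference in the makeup of the U5 reads was not detectable at this depth.

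VTRNA2-1, also called nc886, is a vault-like RNA known to bind the kinase PKR. It had 32, 36 and 406 counts in the controls and 15, 7 and 29 counts in the silenced cells, which is 3.29, 3.11 and 24.004 CPM against 1.46, 0.647 and 2.16 CPM. Control replicates 1 and 2 lay close to each other and above all silenced libraries. The log2 fold change was -2.85 (standard error 0.772) and, without control replicate 3, -1.13 (standard error 0.396).

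VTRNA1-1, a component of the vault particle itself, was near the limit of detection. It had 1, 8 and 8 counts in the controls and 3 counts in each silenced library, was below the filter on low counts and was not tested. Summed over each group there were 9 silenced and 17 control counts, a ratio per library size of 0.586 with a 95% counting interval of 0.23 to 1.39, which includes no difference. It was the only member that was not highest in control replicate 3.

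**Figure D1:**
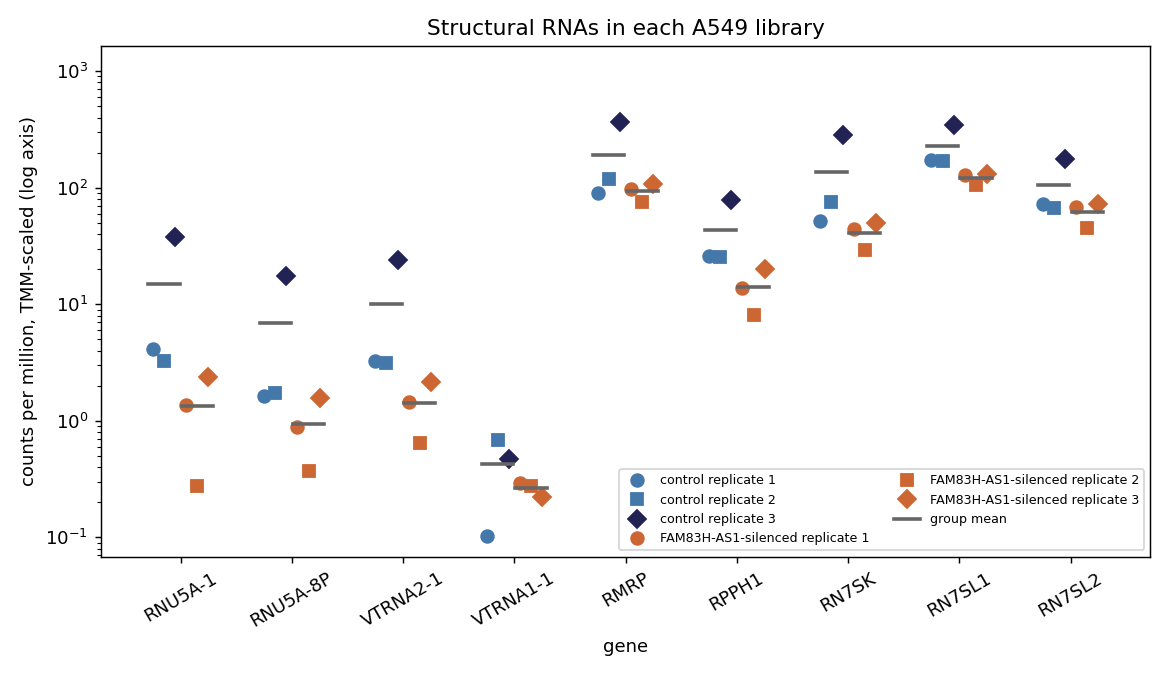
The plot gives the level of each structural RNA in each library in TMM-scaled CPM on a log axis, with control libraries in blue, silenced libraries in orange and the group means as grey lines. Control replicate 3 (dark diamonds) is the highest library for 8 of the 9 RNAs, from 17.4 CPM for RNU5A-8P to 365 CPM for RMRP, while silenced replicate 2 (orange squares) is the lowest for the same number.

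Of the catalytic RNAs, RPPH1 separated the groups and RMRP did not. RPPH1, the RNA of RNase P, was at 25.8, 25.2 and 78.2 CPM in the controls and at 13.7, 8.14 and 20.2 CPM in the silenced cells. Each silenced library was below each control, also below control replicates 1 and 2 alone. The log2 fold change was -1.63 (standard error 0.425), and -0.85 (standard error 0.259) without control replicate 3, with the silenced mean at 54.9% of that of the other 2 controls.

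RMRP was at 90.1, 119 and 365 CPM in the controls and at 97.6, 75.4 and 107 CPM in the silenced cells. The groups overlapped, since silenced replicates 1 and 3 were above control replicate 1. The log2 fold change of -1.05 (standard error 0.402) became -0.17 (standard error 0.147) without control replicate 3. Among reads of the 2 RNAs together, RMRP made up 77.7% to 82.5% in the controls and 84.1% to 90.3% in the silenced libraries, control replicate 3 included at 82.3% (Clopper-Pearson 95% interval 81.5% to 83.2%). The share of RMRP, which does not depend on the library's total, was higher in each silenced library than in each control, although the intervals of silenced replicate 3 (82.3% to 85.8%) and control replicate 2 (80.6% to 84.3%) overlapped.

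RN7SK was at 52.1, 74.9 and 282 CPM in the controls and at 44.4, 28.9 and 49.7 CPM in the silenced cells. The lowest control was above the highest silenced library by a narrow margin. The log2 fold change was -1.74 (standard error 0.501) with all libraries and -0.63 (standard error 0.198) without control replicate 3, where the silenced mean was 64.6% of that of the other controls.

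The signal recognition particle RNAs were among the most abundant members and, of the 8 tested, differed least between the groups when all libraries were used. RN7SL1 was at 173, 169 and 346 CPM in the controls and at 129, 106 and 130 CPM in the silenced cells, without overlap. The log2 fold change was -0.92 (standard error 0.230), and without control replicate 3 it was -0.49 with the smallest standard error of the members (0.0986).

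RN7SL2 was at 73.2, 66.7 and 177 CPM in the controls and at 68.6, 44.9 and 73.0 CPM in the silenced cells, and the groups overlapped. Its log2 fold change was -0.78 (standard error 0.317), and -0.17 (standard error 0.165) without control replicate 3. RN7SL1 made up 70.3%, 71.7% and 66.1% of the reads of the pair in the controls and 65.2%, 70.3% and 64.0% in the silenced cells, so the library with most of these RNAs was not the one with the largest share of RN7SL1.

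Levels can be compared between genes only per length, and on the scale of CPM per kilobase of the annotated RNA the order in control replicates 1 and 2 was RN7SL1 (571), RMRP (390), RN7SL2 (233), RN7SK (194), RPPH1 (76.6), RNU5A-1 (31.9), VTRNA2-1 (25.0), RNU5A-8P (14.8) and VTRNA1-1 (4.01). In the silenced libraries the order of the first 5 was the same, with RN7SL1 at 407, RMRP at 348, RN7SL2 at 207, RN7SK at 125 and RPPH1 at 42.1. RN7SL2 and RN7SK overlapped between libraries of each of these groups, RN7SL1 and RMRP overlapped in the silenced cells, and so did RNU5A-1 (11.6), VTRNA2-1 (11.1) and RNU5A-8P (8.22). These values describe what the library protocol recovered of short RNAs, and its recovery by length is not given in the sources used here.

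A gene was taken as passing with an adjusted p under 0.05 by edgeR over 15250 tested genes, and as called with a fold change over 2 in addition. Of the 8 members tested 6 passed, all lower, and 5 were called, compared with 17.0% of all tested genes that passed in either direction, 8.27% that passed as lower and 0.997% that were called as lower. RMRP and RN7SL2 did not pass. As the members were selected on this contrast, nothing is read from that count, and RNU5A-1, RNU5A-8P and VTRNA2-1 reached the filter on low counts in all controls but not in all silenced libraries. With all libraries and this filter, 0 members passed a threshold of 0.01 by edgeR without a replicate block and by DESeq2. In these 2 fits 8 and 5 had an unadjusted p under 0.05. With all genes of at least 1 count, 8 members passed at 0.01 by edgeR. Leaving out control replicate 3, only RN7SL1 passed, compared with 12.4% of the tested genes in either direction and 5.93% as lower. By edgeR, 0 members passed without silenced replicate 1 and 0 without silenced replicate 2, though 8 and 6 of them had an unadjusted p under 0.05. DESeq2 on all libraries gave 1 member under 0.05, VTRNA2-1, and no p for RNU5A-1.

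All silenced libraries were below all controls for 6 of the 9 members, compared with 17.5% of all tested genes. Against control replicates 1 and 2 alone the same 6 did not overlap, where 21.8% of tested genes did so: RNU5A-1, RNU5A-8P, VTRNA2-1, RPPH1, RN7SK and RN7SL1. As a percentage of the mean of control replicates 1 and 2, the silenced mean ran from 36.3% for RNU5A-1 to 89.2% for RMRP. Lower counts after silencing were part of how the members were selected, so nothing is read from this range. The median log2 fold change of the 9 was -1.63 with all libraries and -0.65 without control replicate 3. That of all tested genes was -0.00067 with all libraries. VTRNA1-1 was taken from a fit without the filter. The median of -0.65 is its own value, from 1 and 8 counts in the controls and 3 in each silenced library.

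**Figure D2:**
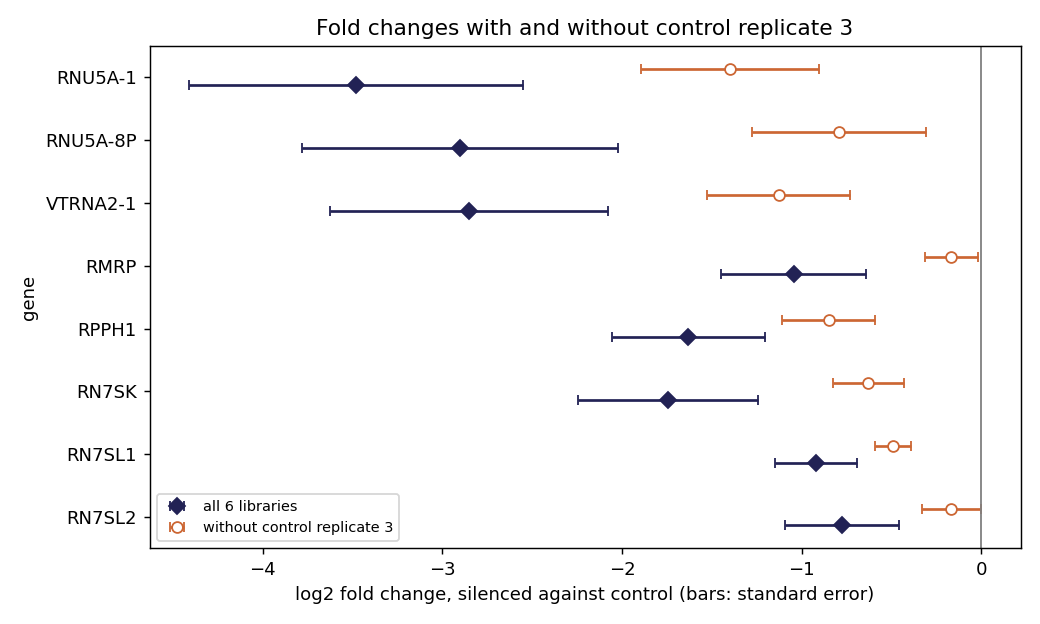
The plot gives the log2 fold change of silenced against control cells for the 8 members tested, with all 6 libraries (filled diamonds) and without control replicate 3 (open circles), and the bars are standard errors. Each value moves toward 0 without that library, from -3.48 to -1.40 for RNU5A-1 and from -1.05 to -0.17 for RMRP, and stays below 0.

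The excess of control replicate 3 differed between the members. Over the mean of control replicates 1 and 2 it was 10.2 times for RNU5A-1, 10.3 times for RNU5A-8P and 7.50 times for VTRNA2-1, the members of 114 to 128 bases. For the members of 268 to 333 bases it was between 2.03 times (RN7SL1) and 4.44 times (RN7SK), with RMRP at 3.49, RPPH1 at 3.07 and RN7SL2 at 2.53. VTRNA1-1, of 99 bases, was at 1.19 times, but 8 counts in the library leave an interval of 0.376 to 3.27 for the ratio of summed counts. Among the 15250 tested genes ordered by this ratio, RNU5A-8P was the third, RNU5A-1 came at rank 4, VTRNA2-1 at 20, RN7SK at 64, RMRP at 89, RPPH1 at 106, RN7SL2 at 136 and RN7SL1 at 196. Of related RNAs that are no members, RNU5B-1, RNU5D-1, RNU5E-1, RNU5E-6P, RNU5F-1 and RNY3 (102 to 120 bases) were at 7.43 to 11.9 times. RN7SL3 (299 bases) was at 2.08. VTRNA1-3 (89 bases, 37 counts in the library) was at 2.35 times, RNU6ATAC (126 bases) at 4.89 and RNY1 (113 bases) at 5.79. RNU4-2 (141 bases) was at 4.69, RNU12 (150 bases) at 5.67, RNU1-1 and RNVU1-18 (164 bases) at 7.09 and 7.29, and RNU2-2P (191 bases) at 8.96. Length alone did not order all of these RNAs, and its part was not tested. High counts in this library were part of how the members were selected, so nothing is read from their ranks. Of the other tested genes, 195 (1.28%) were over 2 times as high in this library. Among them were 78 small nucleolar RNA, 57 mRNA and 10 snRNA genes.

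**Figure D3:**
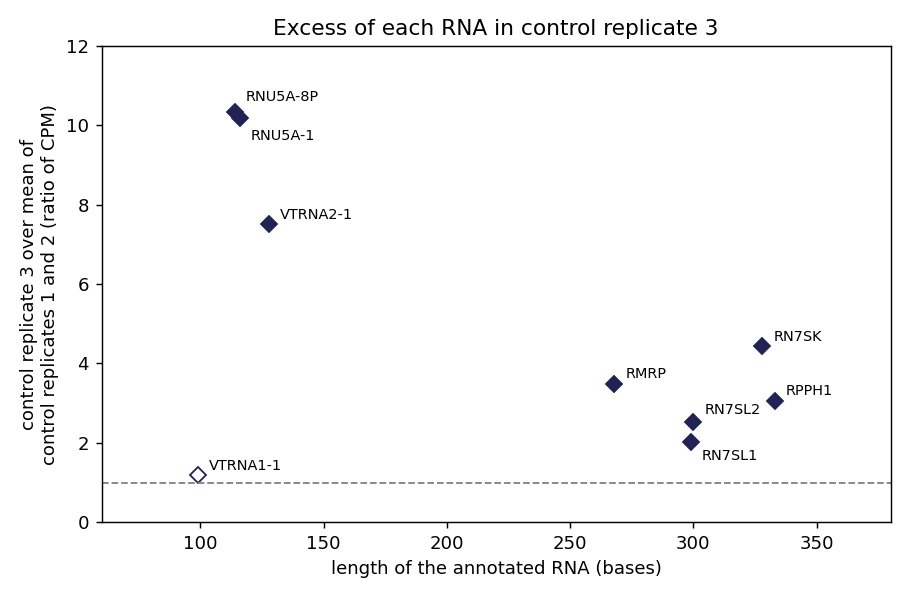
The plot sets the length of each annotated RNA against its level in control replicate 3 as a ratio to the mean of control replicates 1 and 2, with a dashed line at equal levels. The 3 tested RNAs of up to 128 bases lie at 7.50 to 10.3, the 5 longer ones at 2.03 to 4.44, and VTRNA1-1 (open symbol), with few counts, at 1.19.

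Other genes of the snRNA and small nucleolar RNA types were also high in that library, while tRNA and mRNA genes were near the level of the other controls. The median log2 ratio of control replicate 3 to the other controls was 2.85 for 10 tested genes of the snRNA type that are no members, all of them over 2-fold, and 1.92 for 103 small nucleolar RNA genes, of which 78 were over 2-fold. For 17 tRNA genes it was 0.17 and for 12245 mRNA genes 0.01. At the other end, silenced replicate 2 was the lowest library for 8 of the 9 members, where 23.0% of tested genes had their lowest value. RNU5A-1 there was at 14.8% of the mean of the other silenced libraries and RN7SL1 at 82.1%.

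The genes whose levels over the 6 libraries were most like the mean standardized profile of the members were sought among 12123 other genes with a mean of at least 50 counts. They were the small nucleolar RNAs SNORD30 (r = 0.995) and SNORD76 (r = 0.992), the mRNAs of THAP8 (0.992), TCTN2 (0.991) and RPL12 (0.990), and RN7SL3 (0.990), a 7SL RNA with 97.7% identity to RN7SL1. For the 28 pairs of tested members, r over the 6 libraries was 0.905 to 0.997 with a median of 0.972. All of these values share the same 6 libraries, in which control replicate 3 stands apart. THAP8 was only 1.25 times and SNORD30 3.94 times as high there as in the other controls.

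Further small RNAs were taken from 3 lists by function, without the members. Of 23 other spliceosomal snRNAs, 9 were tested and 8 of these were called, all lower, while the ninth, RNU5E-1, had -2.84 (adjusted p = 0.0519). For 7 of the 9, among them RNU1-1 and RNU5D-1, the filter on low counts was reached in all controls but not in all silenced libraries. A lower value was thus favoured by the filter, and nothing is read from the count or from the p of these 7. RNU1-1, a U1 snRNA that recognizes the 5′ splice site, had 22, 14 and 208 counts in the controls and 8, 0 and 2 in the silenced cells, and its log2 fold change was -4.20 ± 1.01 (SE), at an adjusted p of 0.017 by edgeR. RNU5B-1, a U5 variant with 94.0% identity to RNU5A-1, fell by 2.70 on the log2 scale (adjusted p = 0.0434 by edgeR), and RNU5D-1, a further U5 variant, fell by 3.32 (adjusted p = 0.0352). RNU4-2, a U4 snRNA, RNU12, the U12 snRNA of the minor spliceosome, and RNVU1-18, a variant U1, had log2 fold changes of -2.60, -2.59 and -2.79. All 9 were highest in control replicate 3. Without that library only RNU1-1 still passed, at -2.51 (adjusted p = 0.0456), and it did not pass without silenced replicate 3 (adjusted p = 0.0542).

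Few further polymerase III RNAs could be tested. Of 5, RNY1, a Y RNA that binds the Ro60 protein, fell by 2.17 on the log2 scale (adjusted p = 0.0449 by edgeR), with 1.65, 2.85 and 13.0 CPM in the controls and 1.66, 0.832 and 1.56 CPM in the silenced cells. The groups overlapped, and without control replicate 3 its log2 fold change was -0.74. RNY3, another Y RNA, had -2.27 (adjusted p = 0.0656). VTRNA1-3, RN7SL3 and the 7SL pseudogene RN7SL5P had -1.19, -0.81 and -0.20 (adjusted p = 0.124, 0.0701 and 0.777 by edgeR). Without control replicate 3, RN7SL5P went the other way, at 0.45 (adjusted p = 0.422 by edgeR). Among 4 tested pseudogenes of 7SL and snRNAs, RNU2-2P, a U2 copy, and RNU5E-6P fell by 2.50 and 3.29 (adjusted p = 0.0486 and 0.0441 by edgeR), and neither passed without control replicate 3, at -0.62 and -1.22. Over the 3 lists 11 of 17 genes passed, compared with 1 of 18 without control replicate 3, 2 of 21 without silenced replicate 1 and 1 of 22 without silenced replicate 2. With at least 10 counts asked of every library, 6 of these genes were tested and 3 passed. Of the 17, 10 genes reached the filter on low counts in all controls but not in all silenced libraries, RNY1 and RNU5E-6P among them. A lower value was favoured by the filter for these 10, so nothing is read from the count of 11 or from their p.

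**Figure D4:**
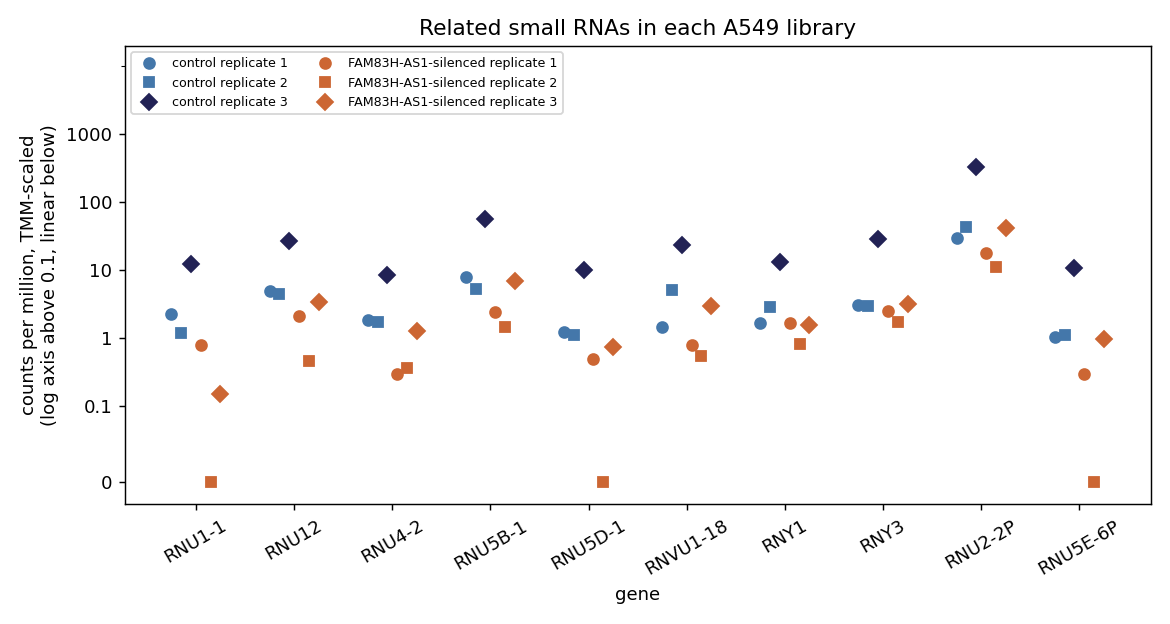
The plot gives the levels of the named small RNAs from the lists in each library, in TMM-scaled CPM on an axis that is logarithmic above 0.1 and linear below. Control replicate 3 (dark diamonds) lies highest for every gene shown, from 8.40 CPM for RNU4-2 to 327 CPM for RNU2-2P, and RNU1-1, RNU5D-1 and RNU5E-6P are at 0 in silenced replicate 2.

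The mRNAs of the proteins that bind, transcribe or process these RNAs are long, and control replicate 3 was not apart for them. Of 118 such genes tested, 23 passed (19.5%), compared with 17.0% of all tested genes. Of the 118, 20 passed as lower (16.9%), compared with 8.27% of all tested genes, and 3 as higher (2.54%). Of all 12245 tested mRNA genes, 2325 passed, 1117 as lower and 1208 as higher. The number of the 118 that passed was 13 without control replicate 2, 13 without silenced replicate 1 and 22 without control replicate 3. Scaled by library size only, 5 passed as higher and 14 as lower.

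Among 31 genes for subunits and factors of RNA polymerase III, 8 fell (25.8%, compared with 8.27% of all tested genes) and none rose, and 1 was called, while 5 fell and 1 (CRCP) rose when scaled by library size only, and 8 fell and 1 (POLR3A) rose without control replicate 3. The called gene was MAF1, the repressor that binds RNA polymerase III and lowers its output. MAF1 mRNA was at 134, 126 and 114 CPM in the controls and at 46.8, 44.5 and 46.7 CPM in the silenced cells. The groups were far apart in every library, with means of 125 ± 10.5 and 46.0 ± 1.30 CPM (n = 3 each), and edgeR gave a log2 fold change of -1.44 ± 0.0839 (SE) at an adjusted p of 6.59e-06, with a range of -1.50 to -1.38 over all alternatives. POLR2H, a subunit shared by the 3 nuclear RNA polymerases, fell from 55.0 ± 0.505 to 40.0 ± 3.20 CPM (n = 3 each), by 0.46 on the log2 scale (adjusted p = 0.00459). The other 6 that passed were GTF3A, GTF3C2, POLR1C, POLR2E, POLR2F and POLR3K, named after their values were seen, between -0.78 and -0.30. Of these only POLR2F passed with every 1 library left out: GTF3A did not pass in 5 of the 6 cases, POLR2E in 5, POLR3K in 4, POLR1C in 2 and GTF3C2 in 1 (adjusted p of 0.061 to 0.131). The median of the 31 was -0.14.

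For the U5 particle and the Sm ring, 4 of 17 genes fell (23.5%, compared with 8.27% of all tested genes) and none rose. SNRPF, which encodes the SmF protein of the ring, was at 67.8, 61.8 and 62.9 CPM in the controls and 33.9, 29.3 and 46.2 CPM in the silenced cells, and edgeR gave a log2 fold change of -0.81 ± 0.137 (SE) at an adjusted p of 0.00345. SNRPG, the SmG gene, fell by 0.42 (adjusted p = 0.0096), and CD2BP2 and SNRPD2, named after their values were seen, by 0.38 and 0.31. SNRPD2 did not pass in 5 of the 6 cases with 1 library left out, control replicate 3 among them (adjusted p = 0.0662), and CD2BP2 not in 3 of them. Of 41 genes for snRNA synthesis and particle assembly 2 fell (4.88%, compared with 8.27% of all tested genes), and the median of the 41 was -0.06. NABP2 fell by 0.51 (adjusted p = 0.00276) and WDR77, part of the methylosome that modifies Sm proteins, by 0.25 (adjusted p = 0.0337). The call of WDR77 was lost when any 1 library other than silenced replicate 2 was left out (adjusted p of 0.0538 to 0.105), and also when scaled by library size only (adjusted p = 0.0819).

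MVP, the major vault protein, was one of the few partners that rose. It was at 237, 224 and 235 CPM in the controls and at 339, 332 and 319 CPM in the silenced cells, without overlap, and the log2 fold change of 0.51 ± 0.0657 (SE) had an adjusted p of 8.68e-04 by edgeR. PARP4, the vault poly(ADP-ribose) polymerase, had 0.21 (adjusted p = 0.0662), and passed with scaling by library size only (adjusted p = 0.045).

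Of 11 protein genes of RNase P and RNase MRP 3 fell (27.3%, compared with 8.27% of all tested genes), and the median of the 11 was 0.01. RPP21 fell by 0.53 (adjusted p = 0.0299), RPP25 by 0.37 (adjusted p = 0.0143) and POP4, named after its values were seen, by 0.37. POP4 did not pass without control replicate 2 (adjusted p = 0.124) or control replicate 3 (0.0596), nor without silenced replicate 1 (0.121) or silenced replicate 2 (0.075). RPP21 did not pass without control replicate 1 (adjusted p = 0.0883) or control replicate 2 (0.0664), nor without silenced replicate 2 (0.0848) or silenced replicate 3 (0.0657), and RPP25 did not pass without silenced replicate 1 (0.0676). In the 7SK particle 2 of 7 genes fell (28.6%, compared with the same 8.27%), and the median of the 7 was -0.07. HEXIM2, an inhibitor of P-TEFb, fell by 0.57 (adjusted p = 0.0123) and MEPCE, the enzyme that caps 7SK RNA, by 0.44 (adjusted p = 0.00712). HEXIM2 did not pass without silenced replicate 1 (adjusted p = 0.0571).

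Of 8 genes of the signal recognition particle and its receptor, 2 rose (25.0%) and 1 fell (12.5%, compared with 8.27% of all tested genes). The median of the 8 was 0.02. SRPR, the receptor subunit, rose from 263 ± 19.3 to 344 ± 6.99 CPM (n = 3 each), by 0.39 on the log2 scale (adjusted p = 0.00575 by edgeR), and SRP54, named after its values were seen, by 0.34 (adjusted p = 0.0455). SRP54 lost its call when any 1 library other than silenced replicate 1 was left out (adjusted p of 0.0791 to 0.133), control replicate 3 included. SRP9, which binds the Alu domain of 7SL RNA, fell from 40.9 ± 7.49 to 27.2 ± 4.45 CPM (n = 3 each), by 0.59 (adjusted p = 0.018). SRP9 did not pass without control replicate 2 (adjusted p = 0.0697), silenced replicate 1 (0.0762) or silenced replicate 3 (0.0584).

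**Figure D5:**
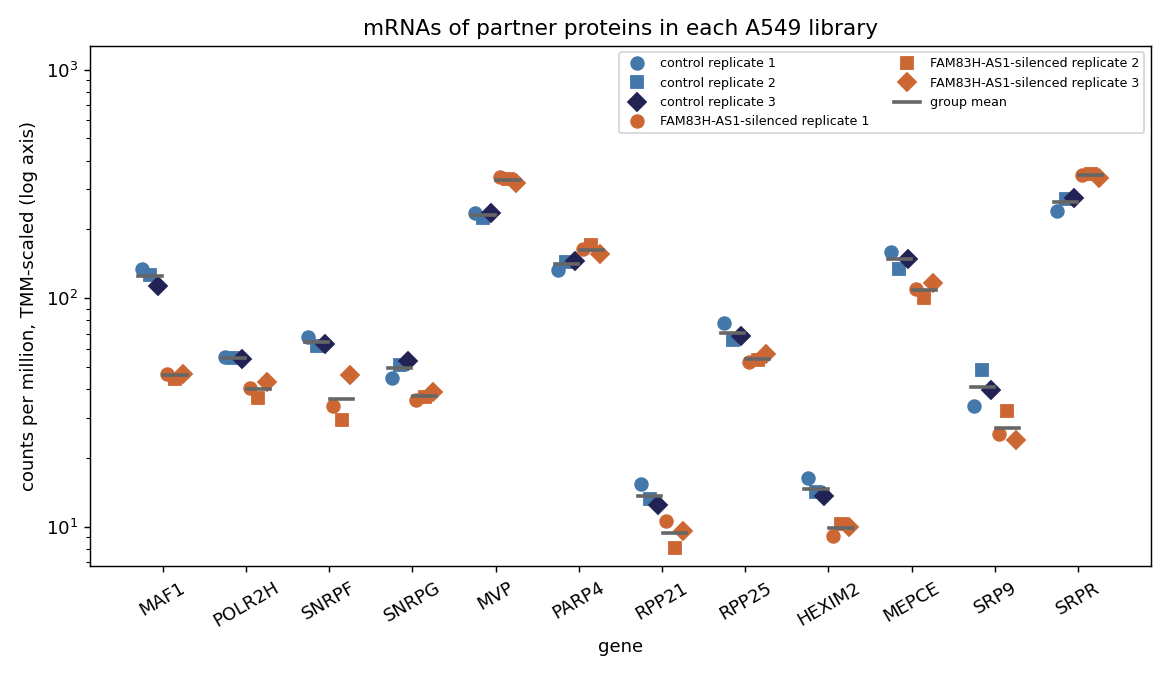
The plot gives the mRNA levels of 12 of the 14 named partners (NABP2 and WDR77 are not shown) in each library, in TMM-scaled CPM on a log axis with group means as grey lines. Control replicate 3 (dark diamonds) lies with the other controls, and the groups are widest apart for MAF1, at 114 to 134 CPM in the controls and 44.5 to 46.8 CPM in the silenced cells.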

How the data were processed

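The authors deposited 1 table of gene counts, whole numbers without normalization, for 3 control and 3 FAM83H-AS1-silenced libraries. Per the paper, MapSplice gave the number of reads of each gene, and the submitters' processing notes name GRCh37. Strand and multi-mapping rules and tool versions are not given in the sources used here. Samples were grouped by their titles and numbered as in the deposited table. The paper numbers the silenced replicates in another order, so the numbers of silenced replicates, and the checks of same-numbered libraries, rest on the deposited numbering.

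Counts were tested with edgeR 4.0.16 in R 4.3.3: filterByExpr left 15250 of 40173 genes, with TMM scaling (factors 0.955 to 1.02), the quasi-likelihood F test and Benjamini-Hochberg adjustment over all tested genes. The adjusted p of 0.05 and the fold change of 2 are those of the study's methods, and its results use 0.01, tried here as an alternative. The SE of a log2 fold change is its absolute value over the square root of F. The fit was tested on simulated data. Alternatives were other scalings, filters, DESeq2 1.42.0, a replicate block, thinning, a threshold of 0.01 and leaving out each library. Python 3.11.15, pandas 2.3.3 and scipy 1.17.1 gave the descriptions, with exact binomial intervals.

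The members and lists were chosen with earlier results of these data known. Named were all 9 members and, of each list, the called genes (at most 6 by size of change) or, with fewer than 2 called, the 2 with the smallest p. Sequences, places and lengths came from GENCODE 29 on GRCh38, matched by symbol (all 9 matched), and not from the build of the counts. Sequences of the U5 and 7SL RNAs are not reported here. Whether same-numbered libraries pair was checked by the correlation of their deviations from the group means. It was 0.12, 0.15 and 0.07 for the same number and -0.11 to 0.02 for different numbers. As the labels name no pairing, the numbers were not taken as one, and a replicate block was an alternative. The 3 replicates per group differed by more than counting noise (chi-square per degree of freedom 3.92 to 26.9).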

Additional observations from a re-analysis of the deposited data

How the results depend on the processing

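All members kept a log2 fold change below 0 under every alternative that gave one. Over all tested genes, 326 were called, against 583 with all genes of at least 1 count, 199 with at least 10 counts in every library, 148 at an adjusted p under 0.01, and 200 to 335 with 1 library left out, lowest without silenced replicate 1. The number of members that passed, 6, was 8 with all genes of at least 1 count, 3 with at least 10 counts in every library and 1 by DESeq2. At 0.01 it was 0 by edgeR and by DESeq2 with all libraries and filterByExpr. In these fits 8 (edgeR) and 5 (DESeq2) members had an unadjusted p under 0.05. With all genes of at least 1 count 8 members passed at 0.01, and without control replicate 3 1 member did. With 1 library left out, 0 to 7 members passed at 0.05. For the other small RNAs, the 11 that passed became 28 with all genes of at least 1 count, 3 with at least 10 in every library, 2 by DESeq2 and 0 at 0.01 (16 at an unadjusted p under 0.05 by edgeR, 12 by DESeq2, which gave 0 at 0.01 and no adjusted p for 4), and 1 to 15 with 1 library left out. With all genes of at least 1 count, 28 other small RNAs also passed at 0.01, and without control replicate 1 1 of them did. The number of partner genes, 23, was 9 at 0.01 and 13 to 22 with 1 library left out. The median log2 fold change of the members was -1.91 to -0.65 with 1 library left out, and the median log2 ratio of control replicate 3 to the other controls (1.80) was 1.73 scaled by library size only. The filters change which genes are tested, and the cause of the other changes was not tested. With a replicate block, 380 genes, 7 members, 14 other small RNAs and 33 partner genes passed the same thresholds, and the median of the members was -1.43. At 0.01 with this block, 5 members and 10 other small RNAs passed. Each library correlated best with its own number, a hint from the data and not from the design. Depth limits VTRNA1-1, and the U5 and vault RNAs in silenced replicate 2, at 3 to 7 counts.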
